A study of Mus musculus with 2 samples.

Results

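The 7 genes Gata1, Klf1, Zfpm1, Epor, Tfrc, Car1 and Car2 mark or drive the turn of blood progenitors towards red cells. They are a fixed list of names, chosen from 53273 annotated genes in the deposited tables, and the list uses no measured value. The values come from bone marrow of Fucci mice on the C57BL/6 strain, 8 weeks old, in a study on the expansion of quiescent blood stem cells. All cells carry the Fucci reporter, in which a green protein (mAG) joined to part of geminin accumulates in S, G2 and M phase and an orange protein (mKO2) joined to part of Cdt1 accumulates in G0 and G1. The 4 gates are mAG+, mKO2neg, mKO2low and mKO2high, with 48 sorted cells each. The mAG+ and mKO2neg cells form 1 library and the mKO2low and mKO2high cells the other. Neither the number of animals nor surface markers of the sort are given in the sources used here, so each gate is 1 sample and no test across replicates was possible.

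Red cell commitment in the mouse is marked by a change of GATA factor. Stem and early progenitor cells rely on Gata2, and Gata1 takes over its sites as erythroid and megakaryocyte cells form, with Zfpm1 (FOG1) as the cofactor that binds Gata1 directly. Klf1 binds CACCC sequences and switches on adult beta-globin and many other red cell genes. Epor is the receptor for erythropoietin and signals through Jak2 and Stat5. Tfrc brings in transferrin-bound iron, and Car1 and Car2 are carbonic anhydrases that red cells hold in quantity. Low counts of such genes in stem cells are what the term lineage priming refers to.

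The deposited symbols stand 1 gene away from the counts, so each gene was read from the row of the gene just before it in GENCODE M21 order. Genes outside the list of 7 show the displacement. Read this way, 82 ribosomal protein genes held 19.8% of all counts, against 0.181% in the rows bearing their own names. The housekeeping genes Actb, Gapdh, Malat1, B2m and Eef1a1 held 168086 counts in the preceding rows and 935 in their own. The 18 genes of G2 and mitosis summed to 9013 CPM (counts scaled to the same total in each gate) in mAG+ and 1018 CPM in mKO2neg. Reads were enriched for 3′ ends and CPM is not divided by gene length, so levels are compared between gates for 1 gene and not between genes.

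The gates differed in depth, and this bears on every share of cells below. Summed counts were 2791584 in mAG+ and 1608630 in mKO2neg, with 1703263 in mKO2low and 934036 in mKO2high. The median cell held 45177 counts in mAG+ and 24633 in mKO2neg, with 26852 in mKO2low and 14510 in mKO2high. All 12 stem cell markers had counts, with summed levels between 1662 and 2529 CPM per gate. Of 7 mature erythroid markers 5 had counts, Slc4a1 was at 0 in all cells, and the sum lay between 181 CPM in mKO2neg and 357 CPM in mKO2low. Of 10 megakaryocyte markers, which include Gata1 targets, 9 had counts and Gp6 was at 0, with sums between 204 and 451 CPM. Mast cell and basophil markers were nearly absent, at most 0.716 CPM, with 6 of 7 at 0. All 5 B cell markers had counts, with a sum of 197 CPM in mAG+ and 106 in mKO2neg, and of 102 CPM in mKO2low and 81.4 in mKO2high. Of 10 granulocyte and monocyte markers 8 had counts, Ctsg and Ly86 were at 0, and the sum lay between 369 CPM in mAG+ and 493 CPM in mKO2low. Of that sum, Prtn3 alone was at 168 CPM in mAG+ and 305 in mKO2neg, with 429 in mKO2low and 354 in mKO2high. S100a8 had 541 counts over all cells, against 26 of Mpo, 7 of Elane and 4 of Csf1r. Of 3 T cell markers 1 had counts, at most 14.1 CPM. The part of these markers in the results was not tested.

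Promoter sequences were at hand for 5 of the 7 genes, from RefSeq on GRCm38.p6. They are shown for Klf1 and Epor because, of these 5, only they hold GATAA, the letters that GATA factors read, in the 250 bases before the start site. Capitals mark GATAA or TTATC, its other strand, and CACCC or GGGTG, the letters that Klf1 and related factors read. The window of Klf1 is chr8:84901732-84901981 on the plus strand and that of Epor chr9:21963577-21963826 on the minus strand, each written 5′ to 3′ along its gene.
Klf1: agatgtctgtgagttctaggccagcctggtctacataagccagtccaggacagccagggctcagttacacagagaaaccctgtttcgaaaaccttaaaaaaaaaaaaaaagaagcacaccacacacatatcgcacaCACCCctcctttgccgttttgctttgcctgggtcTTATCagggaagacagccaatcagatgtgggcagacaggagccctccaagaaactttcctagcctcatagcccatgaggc
Epor: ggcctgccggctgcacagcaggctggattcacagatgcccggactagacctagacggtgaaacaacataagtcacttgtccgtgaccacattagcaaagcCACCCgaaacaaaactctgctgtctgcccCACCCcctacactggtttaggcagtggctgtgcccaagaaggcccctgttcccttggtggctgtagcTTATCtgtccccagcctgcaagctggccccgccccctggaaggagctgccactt
The GATA letters lie at base -80 from the RefSeq start in Klf1 and at base -54 in Epor. That start differs from the GENCODE gene bounds given below: it lies inside them for Klf1 and outside them for Epor. CACCC letters lie in all 5 genes: in Klf1 at base -114 and in Epor at bases -150 and -121. Over 32851 promoters of the same length, 22.6% hold the GATA letters and 52.0% the CACCC letters. A match describes the letters and is no evidence of binding in these cells.

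Of the transcription factor genes, Gata1 (ENSMUSG00000031162, chrX:7959260-7978071, minus strand, mm10) was nearly absent: 26 counts in 5 cells. It had 0 counts in mAG+ (0 CPM), 13 in mKO2neg (8.08 CPM), 13 in mKO2low (7.63 CPM) and 0 in mKO2high. With 0 of 48 cells, mAG+ and mKO2high each allow a share of cells with a count of up to 6.25% by a floor of 3 cells, and the exact 95% interval reaches 7.40%. Counts were thus present in mKO2neg and mKO2low only, and in each of them a single cell carried most or all of the level. In mKO2neg 4 of 48 cells had a count (8.33%, exact 95% interval 2.32 to 19.98), and the highest of them held 10 of the 13 counts. In mKO2low the 13 counts lay in 1 cell.

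Klf1 (ENSMUSG00000054191, chr8:84901928-84905291, plus strand), which acts after Gata1 in red cell formation, had 5 counts, all in 1 mKO2neg cell. That is 3.11 CPM in mKO2neg (exact Poisson 95% interval 1.01 to 7.25), with 0 counts in mAG+, mKO2low and mKO2high. The floor of 3 counts corresponds to 1.07 CPM in mAG+, 1.76 in mKO2low and 3.21 in mKO2high, so in mKO2high a level like that of mKO2neg was not detectable at this depth. The 1 cell with Klf1 had 16920 counts in all, among them 1 of Gata1 and 25 of Car2.

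Zfpm1 (ENSMUSG00000049577, chr8:122282141-122337251, plus strand) was the transcription factor gene of the list with counts throughout. It shares its strand and part of its span with the readthrough gene Gm20388, and how reads of shared exons were assigned is not known. Zfpm1 had 142 counts in mAG+ and 30 in mKO2neg, with 162 in mKO2low and 47 in mKO2high. Its level was 50.9 CPM in mAG+ (95% interval 42.8 to 60.0), 18.65 in mKO2neg (12.6 to 26.6), 95.1 in mKO2low (81.0 to 110.9) and 50.3 in mKO2high (37.0 to 66.9). From high to low the order was mKO2low, mAG+, mKO2high and mKO2neg; mAG+ and mKO2high did not differ beyond counting error, while mKO2low lay above and mKO2neg below both. The highest single cell held 12.7% of the counts in mAG+ and 26.7% in mKO2neg, with 36.4% in mKO2low and 19.1% in mKO2high. Without that cell in each gate the levels were 46.4 CPM in mAG+ and 14.1 in mKO2neg, with 64.9 in mKO2low and 44.0 in mKO2high, the same order.

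Zfpm1 was counted in 25 of 48 mAG+ cells (52.1%, 37.2 to 66.7), 11 of 48 mKO2neg cells (22.9%, 12.03 to 37.3), 20 of 48 mKO2low cells (41.7%, 27.6 to 56.8) and 11 of 48 mKO2high cells (22.9%). Cells differed in depth between gates, so each cell was also thinned to 5000 counts, which left out 3 mAG+, 5 mKO2neg, 0 mKO2low and 9 mKO2high cells. At this equal depth Zfpm1 was counted in 11 of 45 mAG+ cells (24.4%, 12.9 to 39.5), 5 of 43 mKO2neg cells (11.6%, 3.89 to 25.1), 12 of 48 mKO2low cells (25%, 13.6 to 39.6) and 8 of 39 mKO2high cells (20.5%, 9.30 to 36.5). All 4 intervals overlap at equal depth.

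**Figure D1:**
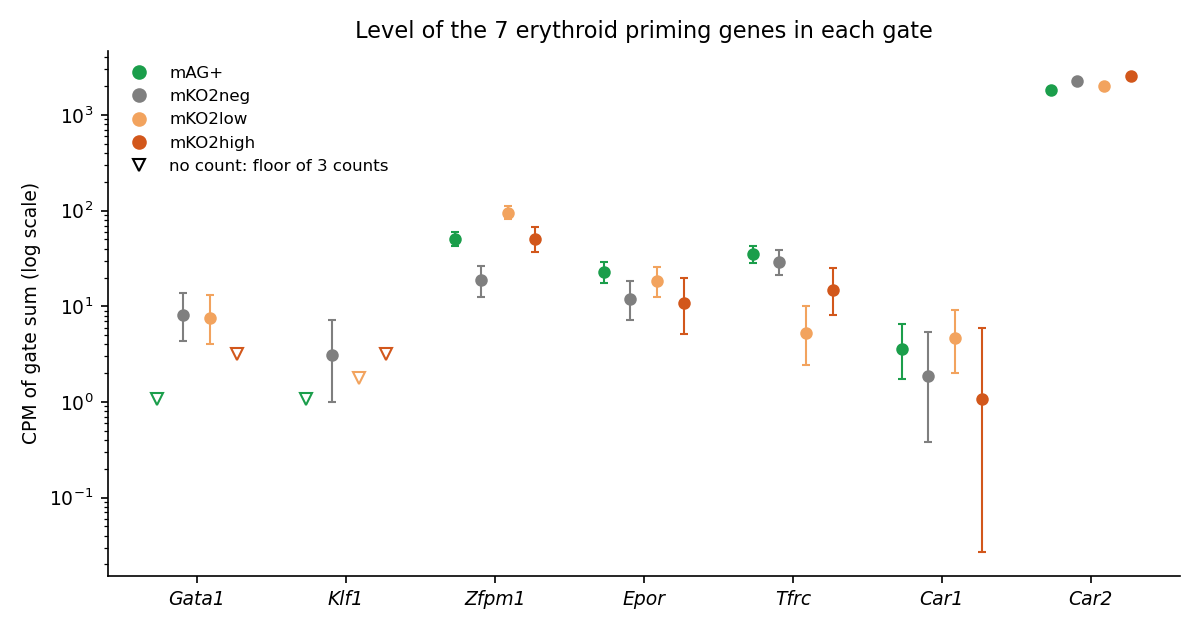
Level of each of the 7 genes per gate, as CPM of the gate sum on a log axis, with exact Poisson 95% intervals; open triangles stand at the floor of 3 counts for a gate without a count. Car2 lies between 1850 and 2545 CPM in every gate, Zfpm1 is highest in mKO2low at 95.1 CPM, and Gata1 and Klf1 have no count in mAG+ and mKO2high.

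The receptors were counted in a minority of cells. Epor (ENSMUSG00000006235, chr9:21958897-21963506, minus strand) had 64 counts in mAG+ and 19 in mKO2neg, with 31 in mKO2low and 10 in mKO2high. Its level was 22.9 CPM in mAG+ (17.7 to 29.3), 11.8 in mKO2neg (7.11 to 18.4), 18.2 in mKO2low (12.4 to 25.8) and 10.7 in mKO2high (5.13 to 19.7). The order from high to low was mAG+, mKO2low, mKO2neg and mKO2high, and the intervals of neighbours in it overlap. Cells with a count were few: 6 in mAG+ and 4 in mKO2neg, with 6 in mKO2low and 2 in mKO2high. The highest of these cells held 45.3% of Epor counts in mAG+ and 57.9% in mKO2neg, with 25.8% in mKO2low and 70.0% in mKO2high. At equal depth 1 mAG+, 1 mKO2neg, 2 mKO2low and 2 mKO2high cells kept a count, so no difference between gates was detectable in the shares.

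Tfrc (ENSMUSG00000022797, chr16:32608920-32632794, plus strand) had 98 counts in mAG+ and 47 in mKO2neg, with 9 in mKO2low and 14 in mKO2high. Its level was 35.1 CPM in mAG+ (28.5 to 42.8), 29.2 in mKO2neg (21.5 to 38.8), 5.28 in mKO2low (2.42 to 10.03) and 15.0 in mKO2high (8.19 to 25.1). Both gates of the library of mAG+ and mKO2neg cells thus lay above both gates of the other library, and between libraries gate and library cannot be told apart. The order from high to low was mAG+, mKO2neg, mKO2high and mKO2low, with overlapping intervals between each gate and the next. In mKO2neg 1 cell held 38 of the 47 counts, and without the highest cell of each gate the levels were 19.8 CPM in mAG+ and 5.72 in mKO2neg, with 2.45 in mKO2low and 6.58 in mKO2high. That removal put mKO2neg below mKO2high and left mAG+ highest. Both gates of the library of mAG+ and mKO2neg cells then no longer lay above both gates of the other. Tfrc was counted in 13 mAG+, 8 mKO2neg, 3 mKO2low and 4 mKO2high cells, and at equal depth in 3 of 45 mAG+, 4 of 43 mKO2neg, 1 of 48 mKO2low and 1 of 39 mKO2high cells.

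The carbonic anhydrase genes differed widely in the number of cells that held them. Car1 (ENSMUSG00000027556, chr3:14766216-14808368, minus strand), in textbooks a gene of committed erythroid progenitors, had 10 counts in mAG+ and 3 in mKO2neg, with 8 in mKO2low and 1 in mKO2high. They lay in 5 mAG+, 1 mKO2neg, 2 mKO2low and 1 mKO2high cells. Levels were 3.58 CPM in mAG+ and 1.87 in mKO2neg, with 4.70 in mKO2low and 1.07 in mKO2high, and their intervals overlap. Car1 overlaps the pseudogene Gm16399 on the same strand, and how such reads were assigned is not given in the sources used here.

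Car2 (ENSMUSG00000027562, chr3:14886273-14900770, plus strand) was the only gene of the 7 counted in nearly every cell. It had 5164 counts in mAG+ and 3640 in mKO2neg, with 3399 in mKO2low and 2377 in mKO2high. Of 48 cells per gate, 46 mAG+, 44 mKO2neg, 48 mKO2low and 44 mKO2high cells had a count. The 10 cells without a Car2 count had at most 494 counts in all, and each of the 175 cells with at least 5000 counts had Car2. Thinned to 5000 counts, 43 of 45 mAG+ cells (95.6%) and all cells of mKO2neg (43), mKO2low (48) and mKO2high (39) kept a count. The share of cells with Car2 thus did not differ between gates beyond counting error.

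The level of Car2 did differ between gate sums beyond counting error. It was 1850 CPM in mAG+ (1800 to 1901), 2263 in mKO2neg (2190 to 2338), 1996 in mKO2low (1929 to 2064) and 2545 in mKO2high (2444 to 2649), and no 2 of these intervals overlap. The highest single cell held 17.9% of the counts in mKO2neg and 18.3% in mKO2high. Without that cell in each gate the levels were 1775 CPM in mAG+ and 2139 in mKO2neg, with 1886 in mKO2low and 2243 in mKO2high. Per cell the gates lay closer together. The median over cells with at least 5000 counts was 1870 CPM in mAG+ (quartiles 1131 and 2330), 1737 in mKO2neg (1381 and 2961), 1693 in mKO2low (1099 and 2765) and 1739 in mKO2high (741 and 2953). By this median mAG+ was highest, whereas by the gate sum it was lowest, and the quartile ranges of all 4 gates overlap. Single cells ran from 142 to 3318 CPM in mAG+ and from 415 to 4860 in mKO2neg, then from 211 to 5223 in mKO2low and from 330 to 6402 in mKO2high. The upper end of Car2 in mAG+ cells was thus the lowest of the 4 gates.

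**Figure D2:**
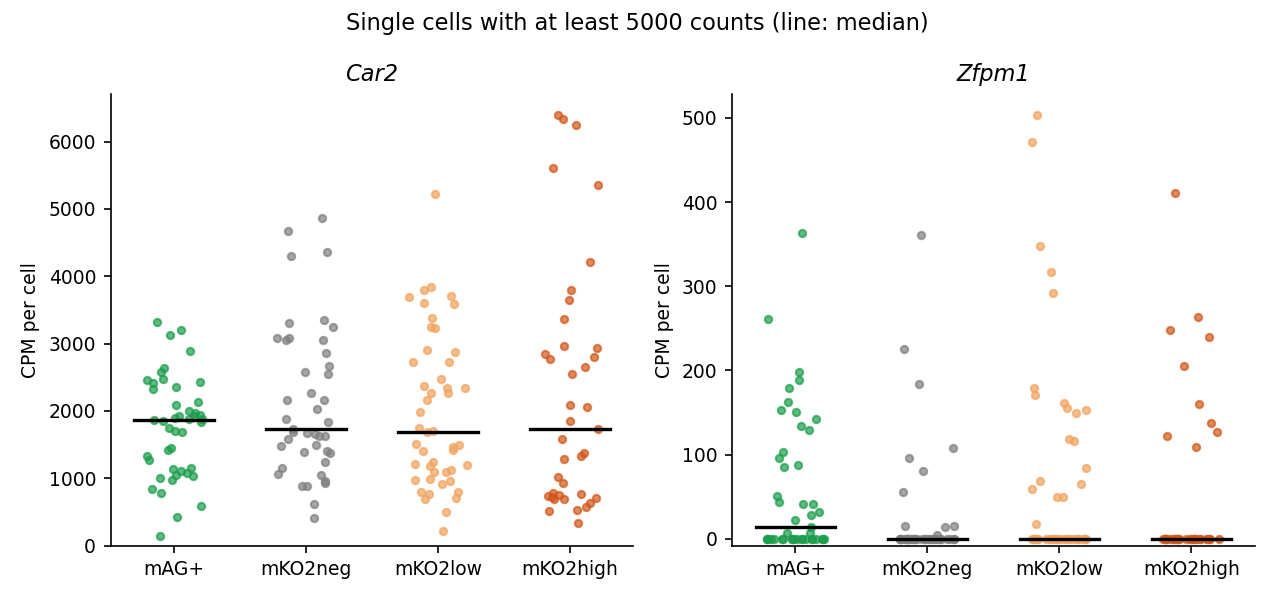
Car2 and Zfpm1 level in each cell with at least 5000 counts, as CPM of that cell, with 1 point per cell and a line at the median of the gate. Car2 was counted in each of these 175 cells, with medians from 1693 to 1870 CPM, while for Zfpm1 the median is 0 in mKO2neg, mKO2low and mKO2high and 14.7 CPM in mAG+.

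**Figure D3:**
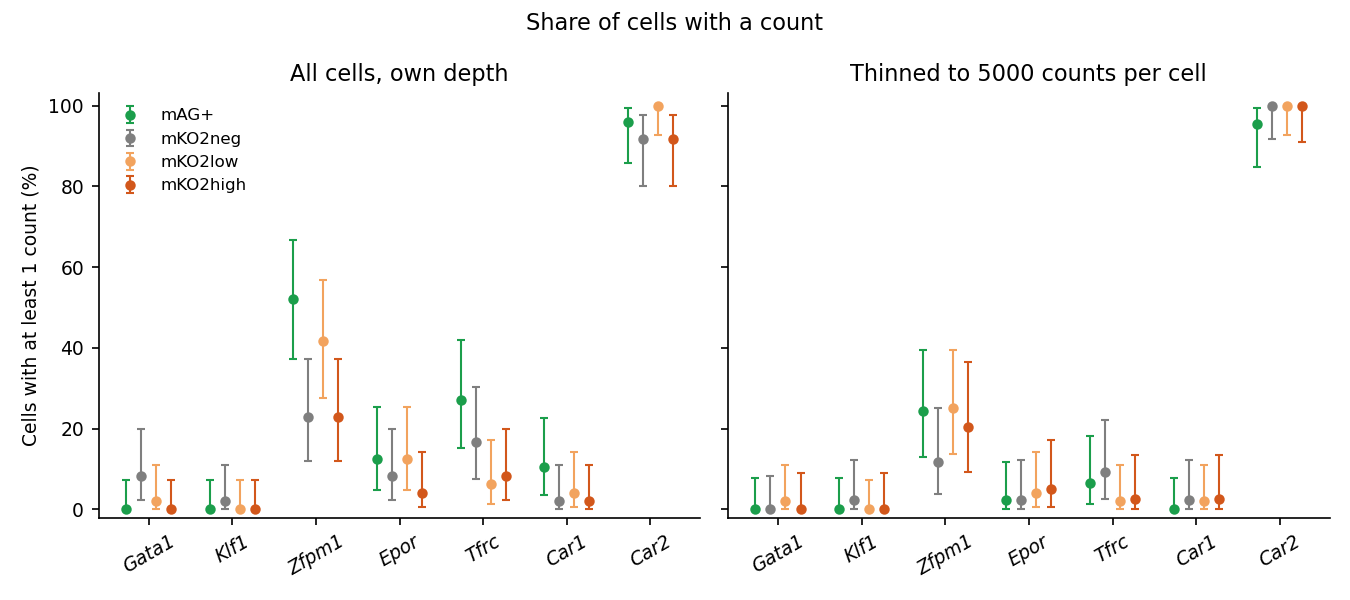
Share of cells with at least 1 count of each gene, in percent with exact 95% intervals, for all 48 cells of a gate (left) and after thinning each cell to 5000 counts (right). The Zfpm1 share in mAG+ is 52.1% at full depth and 24.4% at equal depth, while Car2 stays above 90% in every gate.

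Within the library of mAG+ and mKO2neg cells, 6 of the 7 genes had at least 10 counts over both gates, the minimum for a ratio, and Klf1 did not. The ratio of mAG+ to mKO2neg sets cells in S, G2 or M phase by the reporter against cells sorted for lack of mKO2. Zfpm1 was past 2-fold higher in mAG+, with a log2 ratio of 1.43 (exact conditional 95% interval 0.87 to 2.07), and 0.94 at equal depth, where it rests on 13 counts against 6. Gata1 was the gene past 2-fold lower in mAG+: 0 counts against 13, which is at least 7.52-fold lower when mAG+ is set to the floor of 3 counts per gate. That fold leaves out counting error in mKO2neg, and with it the upper 95% limit of the log2 ratio is -2.40. Most of that difference came from the 1 mKO2neg cell with 10 counts, and at equal depth Gata1 had 0 counts in both gates. Among all 12115 genes with enough counts, 35.8% were past 2-fold either way, so 2 of 6 is close to the background.

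Of the other genes, Epor was higher in mAG+ beyond counting error, at a log2 ratio of 0.93 (0.20 to 1.78), but at -0.03 at equal depth, with 1 count in each gate. Car2 was lower in mAG+ at -0.29 (-0.35 to -0.23), a value that equal depth left at -0.26. Tfrc, at 0.26 (-0.25 to 0.80), and Car1, at 0.80 (-1.02 to 3.44), were not told apart between these gates. The Tfrc value turned to -0.79 at equal depth and to 1.71 without the highest cell of each gate, so its direction was not settled. Genes of S phase summed to 2039 CPM in mAG+ and 1159 CPM in mKO2neg, and their part in these values was not tested.

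Within the other library, 5 of the 7 genes had enough counts, and Klf1 (0 counts in either gate) and Car1 (8 counts in mKO2low against 1 in mKO2high) did not. The ratio of mKO2low to mKO2high sets the lower against the higher level of the G0 and G1 reporter. Gata1 was at least 2.38-fold higher in mKO2low when mKO2high is set to the floor, 13 counts against 0. With counting error in mKO2low the lower 95% limit of the log2 ratio is 0.74, under the 2-fold line, and all 13 counts came from 1 cell, which kept 1 count at equal depth. Tfrc was past 2-fold lower in mKO2low at -1.38 (-2.89 to -0.19), on 9 counts against 14, and under 2-fold at equal depth, at -0.76 on 1 count against 2. Across 10901 genes 34.5% were past 2-fold either way, near the 2 of 5 here. Zfpm1 was higher in mKO2low at 0.91 (0.44 to 1.42), yet at 0.18 at equal depth and 0.55 without the highest cell of each gate. Car2 was lower in mKO2low at -0.35 (-0.43 to -0.27), at -0.31 at equal depth and at -0.13 with equal weight for each cell. Epor, at 0.73 (-0.30 to 1.96), was not told apart, and equal depth gave -0.24.

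**Figure D4:**
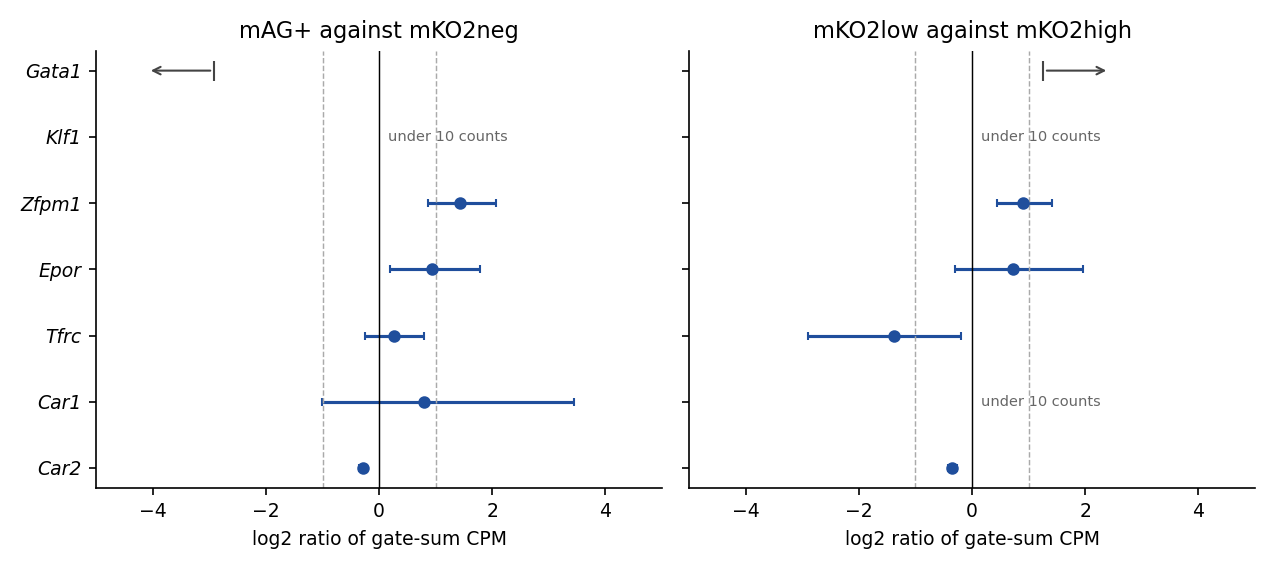
Log2 ratio of gate-sum CPM for each gene in the comparisons within a library, with 95% intervals for counting error; dashed lines mark 2-fold, arrows start at the bound set by the floor of 3 counts, and genes under 10 counts have no point. Zfpm1 lies to the right in both panels, at 1.43 and 0.91, and Car2 slightly to the left, at -0.29 and -0.35.

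The remaining comparisons set gates of different libraries against each other and share gates with those above, so their values are given side by side and gate and library cannot be told apart. For mKO2neg against mKO2low, Tfrc had a log2 ratio of 2.34 (1.42 to 3.68) and Zfpm1 one of -2.31 (-2.96 to -1.78). Car2 was at 0.18 (0.11 to 0.25), Epor at -0.60 (-1.53 to 0.25), Gata1 at 0.08 (-1.14 to 1.31) and Car1 at -1.10 (-3.88 to 0.73). Past 2-fold were thus 3 of 6 genes, against 32.0% of 11375 genes. Without the highest cell of each gate Tfrc was at 1.05 and Zfpm1 at -2.16. Zfpm1 was at -1.51 at equal depth and at -1.43 with equal weight for each cell. By that weighting Car2 was at 0.09, outside its interval. Car1 was at 0.08 at equal depth, on 1 count in each gate, which ends its call. For mAG+ against mKO2high, Tfrc was at 1.2 (0.41 to 2.15), Epor at 1.06 (0.13 to 2.23) and Car1 at 1.36 (-1.07 to 7.18). Zfpm1 was at 0.02 (-0.47 to 0.52), and at -0.39 at equal depth, and Car2 at -0.46 (-0.53 to -0.39). Here 3 of 5 were past 2-fold, all higher in mAG+, against 43.3% of 11849 genes either way and 26.2% higher. At equal depth Epor was at -1.46, on 1 count against 4, Car1 at -1.05, on 0 counts against 1, and Tfrc at 0.85, on 5 counts against 2, so none of the 3 was past 2-fold higher at that depth. With equal weight for each cell Tfrc was at 0.71 and Car2 at -0.30. Without the highest cell of each gate Car2 was at -0.34. Gata1 and Klf1 had 0 counts in mAG+ and mKO2high, so no fold is given.

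How many of the genes a cell held differed with its depth. At least 3 of the 7 were counted in 15 of 48 mAG+ cells (31.2%, 18.7 to 46.2), 5 of 48 mKO2neg cells (10.4%, 3.47 to 22.7), 5 of 48 mKO2low cells (10.4%) and 3 of 48 mKO2high cells (6.25%, 1.31 to 17.2). Thinned to 5000 counts these became 3 of 45 mAG+ cells (6.67%, 1.40 to 18.3), 1 of 43 mKO2neg cells (2.33%), 1 of 48 mKO2low cells (2.08%) and 1 of 39 mKO2high cells (2.56%). The wide gap at full depth is thus not seen beyond counting error at equal depth. No cell held more than 5. The cell with 5 was an mKO2neg cell of 35597 counts, with 38 of Tfrc, 173 of Car2, 3 of Car1, 2 of Zfpm1 and 1 of Gata1. It is also the cell that carried most of the Tfrc level of its gate. The Gata1-richest cells did not resemble it: the mKO2low cell with 13 Gata1 counts had 36 of Car2 and no other gene of the list, and the mKO2neg cell with 10 had 47 of Car2 and 1 of Tfrc.

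Pairs of genes met mainly in deep cells. Tfrc and Zfpm1 were both counted in 15 cells, of 28 with Tfrc and 67 with Zfpm1, and the median depth of the 15 was 58555 counts against 26140 over all cells. Epor met Zfpm1 in 6 of its 18 cells and Tfrc in 3. Of the 9 cells with Car1, 7 also had Zfpm1 and 8 had Tal1, the partner of GATA factors in the erythroid complex. Gata2, the GATA factor of stem cells, was counted in 151 cells, and in 62 of the 67 with Zfpm1 and 4 of the 5 with Gata1. Gata2 itself was at 154 CPM in mAG+ and 234.4 in mKO2neg, with 289 in mKO2low and 207 in mKO2high.

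Likeness between genes over cells was weak. By Pearson's r of log2(CPM + 1) over the 175 cells with at least 5000 counts, the genes most like Zfpm1 were Slk (0.35), Ube2q2 (0.31) and Trim6 (0.30). For Car2 they were 2410006H16Rik (0.29), Smyd3 (0.25) and Ccdc12 (0.24), and for Epor D330041H03Rik (0.34), Kalrn (0.33) and Tubgcp4 (0.32). For Tfrc they were Zfp652 (0.37), Mtrr (0.37) and Gm14150 (0.36). Gata1 was most like Ube2cbp (0.38), Als2cl (0.38) and Nol10 (0.37) on 5 cells, Klf1 like Slc35f2 (0.39), Oaz1-ps (0.38) and Gm13192 (0.37) on 1, and Car1 like Gm7694 (0.39), Serpina3k (0.34) and Taf2 (0.33) on 9. The cells come from 2 libraries and 4 gates and differ in depth. Over the 7 genes, r with log2 depth ran from -0.05 for Klf1 to 0.23 for Tfrc. These are the highest of about 10172 values for each gene, and values this low in sparse counts are no finding.

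Other genes of the pathway were read from lists of names, set with earlier results of these data known. Named are the up to 4 of each list with the highest level. The list of the GATA complex and its partners also takes in factors outside the complex, such as Spi1, Fli1 and Myb. It was well counted: 17 of 18 genes had enough counts. In mAG+ against mKO2neg 0 were past 2-fold higher and 2 lower (median log2 ratio -0.13), and in mKO2low against mKO2high 3 were higher and 1 lower (median 0.30, and 0.64 at equal depth). Over all genes tested 21.2% were past 2-fold higher and 14.6% lower in mAG+ against mKO2neg (median 0.06). In mKO2low against mKO2high 19.6% were higher and 15.0% lower (median 0.05). These shares over all genes are also the background for the counts of each list below. Lmo2, the bridging protein of the complex, was at 772 CPM in mAG+ and 1018 in mKO2neg, with 1087 in mKO2low and 976 in mKO2high. Lyl1, a relative of Tal1, lay between 328 CPM in mAG+ and 458 CPM in mKO2high. Nfe2, a factor of the globin locus, was at 219 CPM in mAG+ and 327 CPM in mKO2neg, its lowest and highest gate. Cbfa2t3, a corepressor, lay between 290 CPM in mKO2neg and 224 CPM in mKO2low. These factors were thus counted in all 4 gates, where Gata1 was not.

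Of 12 genes of erythropoietin signalling, 2 were past 2-fold higher and 1 lower in mAG+ against mKO2neg (median 0.08), and 2 higher and 0 lower in mKO2low against mKO2high (median 0.43). The median in mAG+ against mKO2neg turned to -0.71 at equal depth and to -0.47 with equal weight for each cell. Ptpn6, a phosphatase that dampens the receptor, was at 241 CPM in mAG+ and 270 in mKO2neg, with 250 in mKO2low and 221 in mKO2high. The Stat5 target Socs2 was at 51.9 CPM in mAG+ and 92.6 in mKO2neg, a log2 ratio of -0.83 (-1.17 to -0.49), with 73.4 CPM in mKO2low and 93.1 in mKO2high. Stat5a lay between 52.3 CPM in mAG+ and 34.3 CPM in mKO2high, and the kinase Pim1 between 42.3 CPM in mKO2neg and 76.9 CPM in mKO2low.

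Of 13 genes of iron handling, 1 was past 2-fold higher and 2 lower in mAG+ against mKO2neg (median -0.55, and -0.25 at equal depth), and of 12 measured in mKO2low against mKO2high 2 were higher and 2 lower (median -0.09). The ferritin genes, which store iron, were the most counted; both have processed pseudogenes, so their counts are uncertain. Fth1 was at 1973 CPM in mAG+ and 2881 in mKO2neg, with 2688 in mKO2low and 3372 in mKO2high. Its log2 ratios were -0.55 (-0.60 to -0.49) in mAG+ against mKO2neg and -0.33 (-0.39 to -0.26) in mKO2low against mKO2high. Ftl1 was at 506 CPM in mAG+ and 985 in mKO2neg, a log2 ratio of -0.96 (-1.07 to -0.86). In mKO2low Ftl1 was at 930 CPM, against 1091 CPM in mKO2high (log2 ratio -0.23, interval -0.34 to -0.12). At equal depth the ratios in mAG+ against mKO2neg were -0.41 for Fth1 and -0.74 for Ftl1. The ferritin genes and Car2 were thus both lowest in mAG+ and highest in mKO2high by gate sum. Tfr2, the second transferrin receptor, was at 81.7 CPM in mAG+ and 127 in mKO2neg, with 86.3 in mKO2low and 52.5 in mKO2high, in 113 cells in all against 28 for Tfrc. Fbxl5, an iron sensor, lay between 79.3 CPM in mKO2low and 33.2 CPM in mKO2high.

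Of 14 genes of heme synthesis and transport 12 were measured: 2 past 2-fold higher and 3 lower in mAG+ against mKO2neg (median 0.31), and 2 higher and 2 lower in mKO2low against mKO2high (median -0.54, and -0.035 with equal weight for each cell). Alas2, the enzyme that starts heme synthesis in red cells, had 3 counts in mAG+, 6 in mKO2high and 0 elsewhere. Abcg2, a porphyrin exporter of stem cells, was at 130 CPM in mAG+ and 73.3 in mKO2neg, with 99.8 in mKO2low and 227 in mKO2high. The pathway enzyme Urod was at 66.3 CPM in mAG+ and 134 in mKO2neg, and at 119 in mKO2low and 147 in mKO2high. Alad, another of its enzymes, was at 57.3 CPM in mAG+ and 37.3 in mKO2neg, and at 84.0 in mKO2low and 18.2 in mKO2high.

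Late red cell genes were sparse. Of 28 listed, Ahsp was not matched and 8 had no count in any cell, among them Slc4a1, the anion exchanger of the red cell membrane. In mAG+ against mKO2neg 14 were measured, with 1 past 2-fold higher and 5 lower (median -0.67). Over all genes tested 21.2% were higher and 14.6% lower. Among the 5 lower, 1 gene had 0 counts against 29 and another 2 against 30, each counted in 2 cells of all gates. In mKO2low against mKO2high 11 were measured, with 2 higher and 0 lower (median 0.13), against 19.6% and 15.0% of all genes tested. Hbb-bt, an adult beta-globin gene, was at 140 CPM in mAG+ and 62.8 in mKO2neg, with 284 in mKO2low and 151 in mKO2high, in 65 cells. It has a near-identical neighbour, Hbb-bs, so its counts are uncertain. Gypc, a red cell membrane protein, lay between 107 CPM in mKO2low and 203 CPM in mKO2high. Blvrb, a biliverdin reductase, lay between 165 CPM in mKO2neg and 91.6 CPM in mKO2low. Epb41, a protein of the membrane skeleton, lay between 68.1 CPM in mKO2low and 45.0 CPM in mKO2high. Of the 14 other carbonic anhydrases 5 had no count. In mAG+ against mKO2neg 4 were measured, with 1 past 2-fold higher and 0 lower (median -0.03). In mKO2low against mKO2high 5 were measured, with 1 higher and 2 lower (median -0.14). At equal depth Car9 alone had enough counts in the latter, at 0.92 on 8 counts against 3. Car3 was at 20.8 CPM in mAG+ and 21.1 in mKO2neg, with 7.05 in mKO2low and 23.5 in mKO2high. Car9 was nearly level by gate sum, between 16.4 CPM in mKO2low and 18.2 CPM in mKO2high. Car11 was counted in 8 cells, with 22 of its 28 counts in mKO2high, and Car5b in 7 cells, with 20 of its 38 counts in 1 mKO2low cell.

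**Figure D5:**
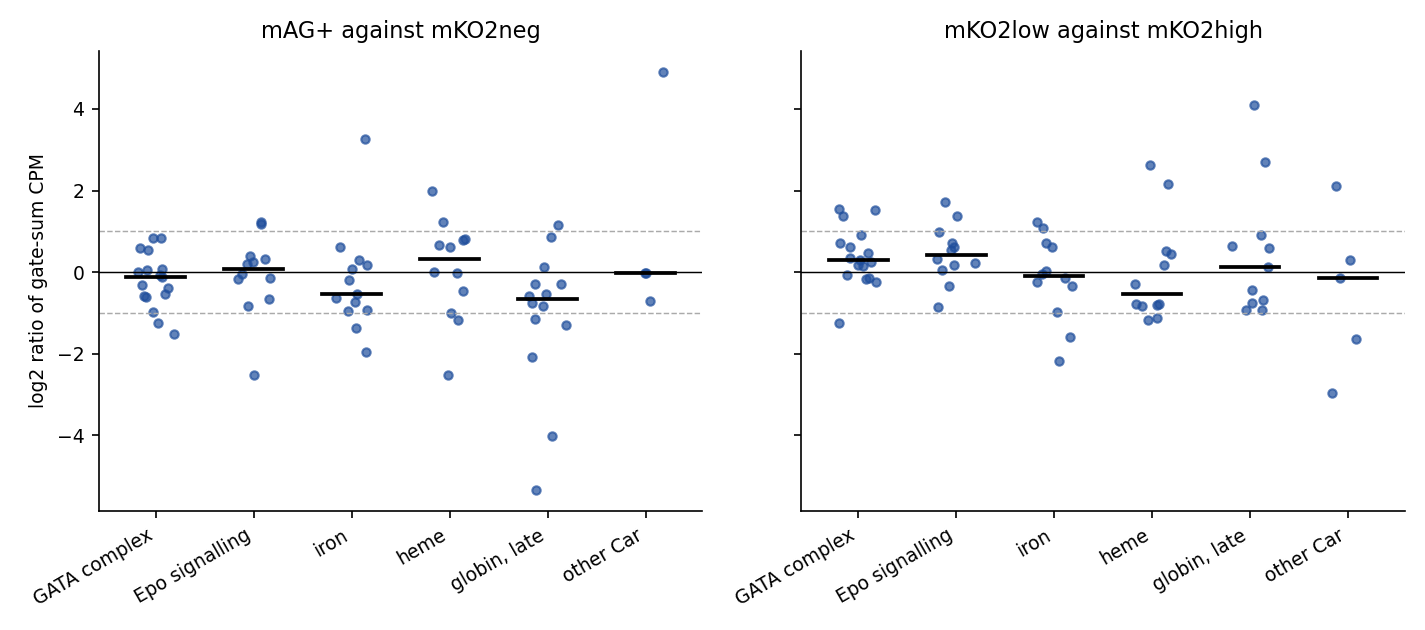
Log2 ratio of gate-sum CPM for the genes of 6 pathway lists in the comparisons within a library, with 1 point per gene of at least 10 counts and a line at the list's median; dashed lines mark 2-fold. The list medians run from -0.67 to 0.31 for mAG+ against mKO2neg and from -0.54 to 0.43 for mKO2low against mKO2high.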

How the data were processed

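Single bone marrow cells were prepared with a modified Smart-seq2 method with enrichment of 3′ ends, per the labels' protocols. The authors deposited raw counts (whole numbers) for each gene and cell, not normalized, and a table of the library and gate of each cell. Build mm10 and the tools HISAT2, HTSeq 0.11.3 and Seurat come from the submitters' processing notes; annotation release, strand setting, filters and molecular identifiers: not given in the sources used here. Of 53378 rows, 53273 matched GENCODE M21 by Ensembl ID without version, and the other 105 held 0.222% of the counts.

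Each gene was read from the row of the preceding gene among these 53273. Counts were summed per gate and scaled to CPM of the gate's total. Log2 ratios used a prior count of 1 and at least 10 counts over both gates; past 2-fold is the call. Intervals are exact (Poisson, conditional binomial or Clopper-Pearson, 95%) and, since reads are not independent molecules, cover counting error only. The floor was 3 counts per gate, and a fold at the floor leaves out counting error in the other gate. Cells ranged from 0 to 210516 counts, no cell name was shared by the libraries, and doublets were not called. All 7 genes are named, with up to 4 genes of each of 6 lists by highest level and the 3 most alike genes for each of the 7. A gene that this rule names is not reported here. Genes, lists and rules were chosen with earlier results of these data known. The ratio step was tested on simulated data. Alternatives were TMM factors (edgeR 4.0.16), size factors (DESeq2 1.42.0, R 4.3.3), equal weight for each cell, thinning, a prior of 0.25, no filter, 3 reads per cell, only cells of 1000 or more gene rows and under 20% mitochondrial counts, the highest cell left out, and the rows bearing each gene's own name. Python 3.11.15, numpy 2.4.6, pandas 2.3.3 and scipy 1.17.1 were used.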

Additional observations from a re-analysis of the deposited data

How the results depend on the processing

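Scaling by TMM or size factors, the prior of 0.25 and the cell filter turned no direction of the 7 genes. Of 153 ratios of single genes under an alternative, 131 stayed within counting error of the reported value, 15 moved, and 7 with a reported interval clear of 0 turned sign, all 7 when genes were read from the rows bearing their own names, which hold other genes' counts. Those were Zfpm1 at -0.36 in mAG+ against mKO2neg; Car2 at 2.28, Tfrc at 3.13 and Zfpm1 at -1.66 in mKO2low against mKO2high; and Car2 at -2.55, Tfrc at -0.58 and Zfpm1 at 2.48 in mKO2neg against mKO2low. Ratios at equal depth that rest on under 10 counts are not among the 153. Epor is among those left out, with a reported interval clear of 0 in mAG+ against mKO2neg and in mAG+ against mKO2high. At equal depth its sign turned in both, from 0.93 to -0.03 and from 1.06 to -1.46. The median of the 7 genes in mAG+ against mKO2high was -0.40 at equal depth, where 2 genes were measured, against 1.06. With those own rows the share of cells with at least 3 of the 7 genes was 2.08% in mAG+ and 0% in mKO2neg, mKO2low and mKO2high. At equal depth it was 6.67%, 2.33% and 2.08% in mAG+, mKO2neg and mKO2low, and from 3 reads per cell on 14.6% in mAG+ and 2.08% in mKO2neg. List medians that moved at equal depth were erythropoietin signalling at -0.71 and iron at -0.25 in mAG+ against mKO2neg. In mKO2low against mKO2high they were the GATA complex list at 0.64 and other carbonic anhydrases at 0.92, where Car9 alone was measured. In mAG+ against mKO2high erythropoietin signalling was at -0.14, against 0.56 at full depth. The heme median in mAG+ against mKO2high turned sign, from -0.74 to 0.15 at equal depth and 0.076 with equal weight for each cell. With equal weight for each cell erythropoietin signalling was at -0.47 (mAG+ against mKO2neg) and heme at -0.035 (mKO2low against mKO2high). By the same weighting the GATA complex list was at 0.021 (mKO2neg against mKO2low). Without a filter the other carbonic anhydrases were at -0.91 (mKO2neg against mKO2low). Genes past 2-fold numbered 4341 in mAG+ against mKO2neg, 3766 in mKO2low against mKO2high, 3645 in mKO2neg against mKO2low and 5129 in mAG+ against mKO2high. Without the filter they were 7076, 7107, 6573 and 8413, and at equal depth, with fewer genes tested, 1666, 1308, 1278 and 1957. For list medians the cause was not tested. No paired analysis was possible because each gate is 1 sample, so no gates share 2 or more replicates, and the number of a library only names it. Gata1, Klf1 and Car1 were counted in 5, 1 and 9 cells, which limits what their levels can show.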
